A study of Mus musculus with 2 samples.

Results

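Of the CTCF-bound regions mapped on the 19 autosomes of mouse thymocytes, the unusually wide ones, wider than 1000 bp, are described here. They were selected on their width alone, after adjoining 25-bp windows listed as peaks had been joined into regions. There were 528 of them among 50386 autosomal regions, or 1.05% (exact 95% binomial interval 0.961% to 1.14%). They were set against 17825 autosomal regions of 575 to 675 bp, the class around the most frequent width of 625 bp. The cells were CD4+CD8+ (double-positive, DP) thymocytes of C57BL/6 mice aged 4 to 8 weeks. All mice were Rag1 -/- and carried a rearranged TCRb transgene, so the endogenous antigen receptor loci of these cells stay unrearranged. Binding was measured by chromatin immunoprecipitation with an anti-CTCF antibody and sequencing (ChIP-seq) in 1 library, and an input library from the same kind of mice was not analysed here. There is no replicate and no second condition. The number of mice behind the library is not given in the sources used here. No expression was measured, so the labelled cell type could not be checked against marker genes.

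CTCF binds a long DNA motif through its zinc fingers and, with the cohesin ring, holds the ends of chromatin loops. Because it sits on a short stretch of DNA, its ChIP-seq signal usually forms a narrow peak whose width follows the length of the sheared fragments. A much wider region can arise where bound sites lie side by side, or where reads from many copies of a repeat are placed at a single copy in the assembly, as is known for ribosomal DNA and satellite repeats. The file gives positions only, with no height or read count, so the depth is unknown and the regions are described by width, place and neighbours. All coordinates are in mm9, counted from 1.

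The wide regions formed the tail of the width distribution and no separate peak. Their median width was 1175 bp, with quartiles of 1075 and 1275 bp, and the range ran from 1025 to 4075 bp. Just outside the bound lay 68 regions of exactly 1000 bp and 77 of 975 bp, and just inside it 48 of 1025 bp and 50 of 1050 bp. In steps of 100 bp the number fell from 319 regions of over 900 to 1000 bp to 182 and 145 in the next steps, 93 over 1200 bp, 41 over 1300 bp and 23 over 1400 bp. Most of the members, 327 of 528 (61.9%), were at most 1200 bp wide, 157 (29.7%) were over 1200 and up to 1500 bp, and 44 (8.33%) were wider still. Together they covered 645 kb, which was 2.90% of all bases covered on the autosomes.

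**Figure D1:**
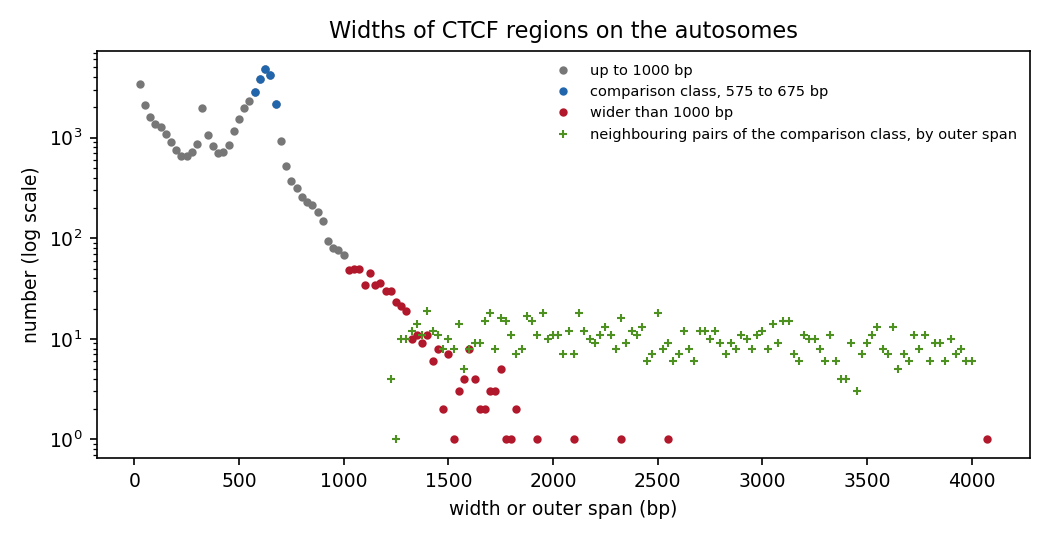
Number of autosomal regions (y axis, log scale) at each width in steps of 25 bp (x axis), with the regions of 575 to 675 bp in blue and the 528 wide ones in red. Green crosses count neighbouring pairs of 575 to 675 bp regions by the distance between their outer edges. It starts at 1225 bp and cannot be under 1175 bp, given the bounds of the class.

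The width of a member was also set beside the outer span of separate pairs. Among 6841 neighbouring pairs of regions of 575 to 675 bp, the shortest outer span was 1225 bp, and 355 pairs spanned at most 2000 bp. The bounds of the class and the window of 25 bp allow no span under 1175 bp, so this minimum is largely set in advance. Spans of over 1200 to 1400 bp were seen for 81 pairs and the same widths for 134 single regions. From 1400 to 1600 bp there were 76 pairs and 39 single regions, from 1600 to 1800 bp 101 pairs and 21 single regions, and from 1800 to 2000 bp 97 pairs and 3 single regions. The pairs thus kept a similar number per step over this range, while single regions became rare. Pairs whose members overlap cannot be seen in the file, because they are joined. The members up to 1200 bp lie under or close to the smallest possible span, so separate pairs of this class give no measure for them. Whether these members hold 2 sites was not tested.

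The widest member was chr17:39979777-39983851, of 4075 bp. It was followed after 375 bp by another member, of 1675 bp (chr17:39984227-39985901). The pair covered 93.9% of an outer span of 6125 bp. They were the only regions in a stretch of 3.54 Mb, since the next region lay 2.59 Mb away on the low-coordinate side and 0.945 Mb away on the other. Of 50329 stretches that hold 2 neighbouring regions, 121 were longer, and the median over all of them was 58.6 kb. Both members lie in a window of 0.2 Mb fixed around the copy of the 45S ribosomal RNA gene that the assembly carries on chromosome 17. The bounds of this window come from general knowledge and were not checked against an mm9 annotation. The window held no other region. Genomes carry this gene in many copies, of which the assembled chromosomes hold few. Whether reads of the input library also pile up there was not tested.

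The other places fixed as known for repeat pile-ups held no wide region. Windows around 4 satellite repeats on chromosomes 2, 6 and 9 contained 11 regions and 0 wide ones (upper bound of the exact interval 28.5%), and the window on chromosome 2 contained no region at all. The window around an insertion of mitochondrial DNA on chromosome 1 contained 1 region, of the 575 to 675 bp class. The first 200 kb of placed sequence next to the centromeric end, taken on all 19 autosomes, contained 50 regions and 0 wide ones (upper bound 7.11%). With so few regions, a share like that of the whole genome could not have been told from 0 in these windows.

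Next in width came chr5:124560946-124563495 (2550 bp), chr1:88396346-88398670 (2325 bp) and chr13:98707796-98709895 (2100 bp). Their surroundings differed. The members on chromosomes 5 and 1 had 17 and 24 other regions within 100 kb, whereas the member on chromosome 13 had 2, with its neighbours 330250 and 85000 bp away. The next, chr4:137874036-137875960 (1925 bp), lay 1225 bp after another member of 1250 bp. Then followed chr5:24515996-24517820 and chr8:73134499-73136323 (both 1825 bp), chr2:164618549-164620348 (1800 bp) and chr2:170333124-170334898 (1775 bp). A width of 1750 bp was shared by chr5:136520596-136522345, chr10:58757803-58759552, chr18:36021482-36023231, chr18:36478357-36480106 and chr19:32830011-32831760. The last of the 20 widest were chr2:11422699-11424423, chr2:152656124-152657848 and chr7:73984080-73985804 (1725 bp) and chr2:147003299-147004998, chr5:137942846-137944545 and chr8:73392424-73394123 (1700 bp). The 20 lay on 11 chromosomes. Their median number of other regions within 100 kb was 12.5, against 11 over all members and 9 over all autosomal regions. Fewer than 3 were found for 3 of the 20 and for 17 of all 528 members (3.22%). In 4 of the 20 the nearest region was within 1 kb. Such a close region was found for 26.5% of all members and 27% of all autosomal regions.

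Wide regions were unevenly spread over the chromosomes. Chromosome 19 had the highest share, 32 of 1580 regions or 2.03% (1.39% to 2.85%), and chromosome 11 the most members, 57 of 4074 or 1.40% (1.06% to 1.81%). The lowest shares were on chromosome 16, with 8 of 1625 or 0.492% (0.213% to 0.968%), and chromosome 13, with 10 of 1996 or 0.501% (0.241% to 0.919%). In these 4 chromosomes the interval left out the share over all autosomes, and in the other 15 it did not. Set against the 575 to 675 bp class, there were 5.32 members per 100 such regions on chromosome 19 and 1.43 and 1.42 on chromosomes 16 and 13. These intervals cover counting error only and take regions as independent, which neighbours in 1 locus are not.

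**Figure D2:**
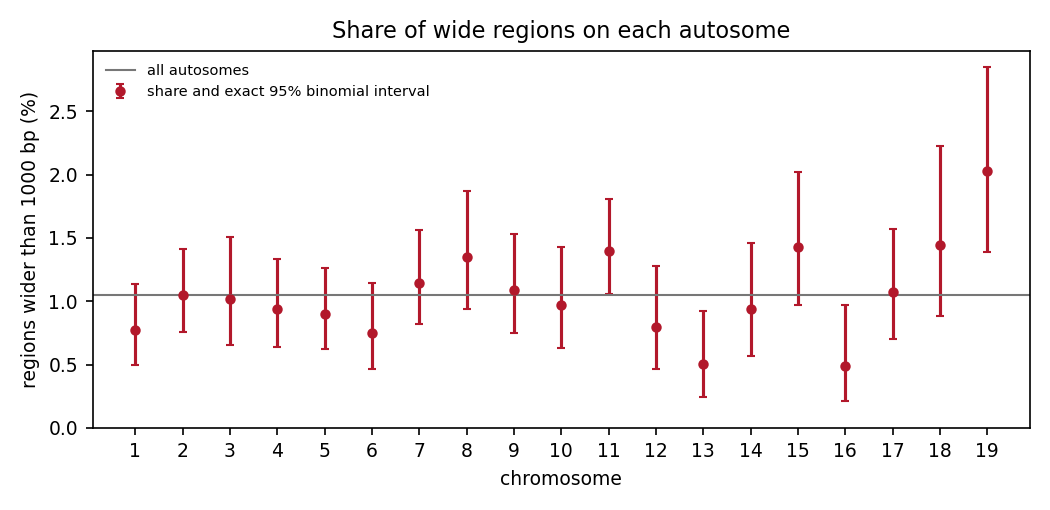
Share of the regions of each autosome that were wider than 1000 bp (y axis, percent), with exact 95% binomial intervals, and the share over all autosomes as a line. Chromosome 19 lies highest at 2.03% and chromosomes 16 and 13 lowest at about 0.5%.

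Along the genome there were 0.214 wide regions per Mb (exact 95% Poisson interval 0.196 to 0.233). Over the 19 autosomes, wide regions per Mb and all regions per Mb had Pearson's r = 0.813 and Spearman's rho = 0.735, and r was 0.858 without chromosome 19. For the share of regions that were wide, the same r was 0.488 (rho 0.433), and 0.427 without chromosome 19. With protein-coding genes per Mb, r was 0.738 for wide regions per Mb and 0.465 for the share that was wide, the latter 0.366 without chromosome 19. All these values share 1 library and the number of regions per chromosome, and are given as descriptions.

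Crowded parts of the genome held more wide regions, also relative to their number of regions. In bins of 1 Mb with 40 or more regions, 322 of 24107 were wide, or 1.34% (1.20% to 1.49%), compared with 0.814% (0.684% to 0.961%) in bins of 20 to 39, 0.837% (0.633% to 1.09%) in bins of 10 to 19 and 0.473% (0.252% to 0.807%) in bins of 1 to 9. The most crowded bins thus held 61.0% of the members and 47.5% of the 575 to 675 bp class. In the 5 equal parts of each chromosome, counted from the centromeric end, the share was 0.824%, 0.891%, 1.09%, 1.10% and 1.19%. The intervals of the first part (0.628% to 1.06%) and the last (1.02% to 1.38%) overlapped. The fullest bin was chr8:73000001-74000000, with 7 wide regions among 66 (10.6%, interval 4.37% to 20.6%). These ran from 1050 to 1825 bp and included 2 of the 20 widest. Bins with 5 wide regions were chr19:5000001-6000000 (of 83) and chr18:36000001-37000000 (of 59), and 3 bins had 4. These bins were picked for their counts, so the shares describe them and test nothing. At the other extreme, no wide region was listed over 35.95 Mb of chromosome 15 (chr15:27781530-63726954), which held 433 regions.

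Wide regions had closer neighbours than the 575 to 675 bp class. The median distance to the nearest other region, from edge to edge, was 3762 bp (exact 95% interval of the median 3100 to 4550 bp) against 6200 bp (6025 to 6350 bp). The lower quartiles were 893.8 and 1925 bp and the upper quartiles 11775 and 15650 bp. Over all autosomal regions the median was 4925 bp. Under the bound it was as short as in the members. At 700 to 800 bp it was 3338 bp (2975 to 3650 bp), and at 825 to 1000 bp 3625 bp (3050 to 4250 bp). Within 1 kb, 140 of the 528 members had another region, or 26.5% (22.8% to 30.5%), against 2900 of 17825 or 16.3% (15.7% to 16.8%). Over all autosomal regions, however, the share was 27%, so by this count the members are near the background, and the difference is one from the 575 to 675 bp class. It also depends on how distance is taken: 10.2 percentage points from edge to edge, it was 2.32 from midpoint to midpoint, where the width of a region itself adds to the distance. Within 10 kb the shares were 72.5% (68.5% to 76.3%) and 63.3% (62.6% to 64.0%), with 66% over all. Within 200 bp they were 11.7% (9.12% to 14.8%) and 6.24% (5.89% to 6.61%), with 18.2% over all.

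**Figure D3:**
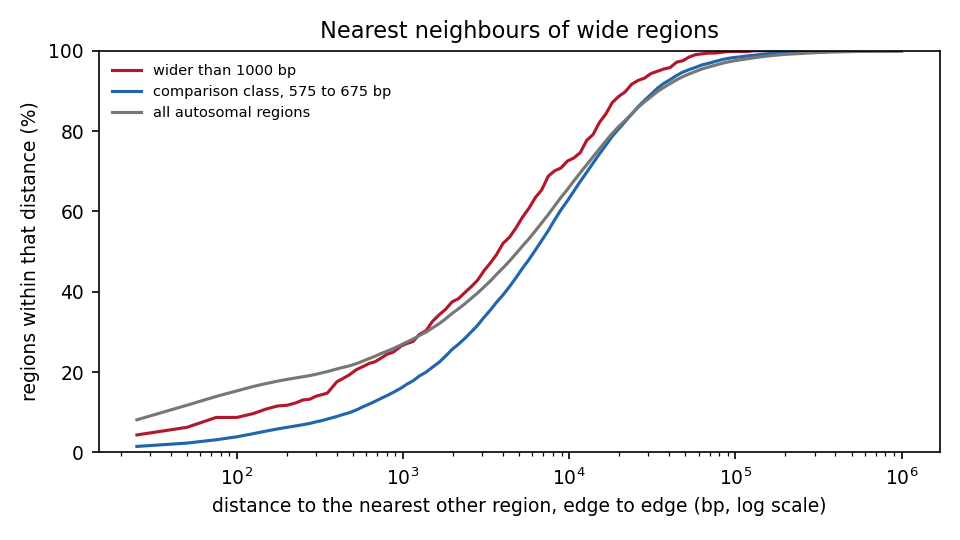
Percent of regions whose nearest other region lies within a given distance (x axis, bp, log scale). The wide regions (red) lie above the 575 to 675 bp class (blue) at 200 bp, 1 kb and 10 kb, and below all autosomal regions (grey) at the shortest distances.

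The background is raised by very short regions. Regions of at most 75 bp made up 14.2% of all, and 65.4% of them had a neighbour within 1 kb. When only neighbours wider than 75 bp were counted, the share was 20.3% (16.9% to 23.9%) for wide regions, 12.99% (12.5% to 13.5%) for the 575 to 675 bp class, and 14.7% over all regions wider than 75 bp. Counted in this way, it was 20.8% (19.15% to 22.4%) at 700 to 800 bp and 19.9% (17.6% to 22.4%) at 825 to 1000 bp. Both are near the share of the members. By width, the share with a neighbour of any size within 1 kb was lowest in the 575 to 675 bp class and higher on both sides of it. Below the class it was 22.6% (22.0% to 23.2%) at 100 to 550 bp. Above the class it was 30.2% (28.3% to 32%) at 700 to 800 bp and 28.1% (25.5% to 30.9%) at 825 to 1000 bp. In the members it was 23.5% (19.1% to 28.5%) at 1025 to 1200 bp, 29.3% (22.3% to 37.1%) at 1225 to 1500 bp and 38.6% (24.36% to 54.5%) above. Above the class, the higher share was thus seen at 700 to 800 bp already, and the share at 825 to 1000 bp, just under the bound, was near that of the members. Among the members, the intervals of the 3 width classes overlapped.

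**Figure D4:**
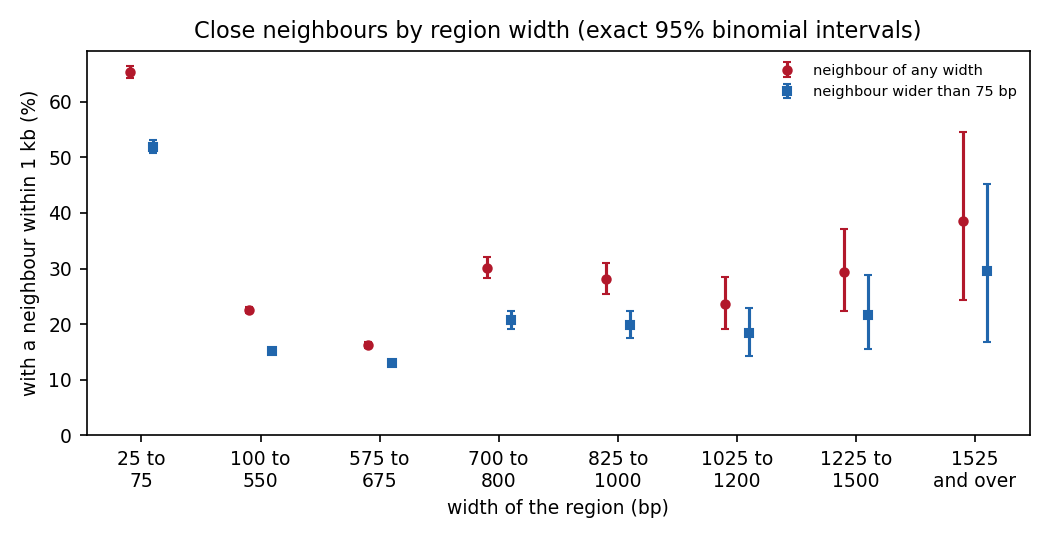
Percent of regions with another region within 1 kb (y axis) by width of the region (x axis, bp), for neighbours of any width (red) and neighbours wider than 75 bp (blue), with exact 95% binomial intervals. The 575 to 675 bp class is lowest at 16.3% and the wide classes at the right lie between 23.5% and 38.6%.

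The share with a neighbour within 1 kb was also compared at matched crowding, measured as the number of regions 10 to 100 kb away. Where this number was 0 to 4, 23.9% of wide regions (15.6% to 33.9%, n = 92) and 12.3% of the class (11.4% to 13.2%) had a neighbour within 1 kb. At 5 to 9 the shares were 24.42% (18.2% to 31.5%) and 16.1% (15.3% to 17.05%), and at 10 to 14 they were 28.2% (21.3% to 36.0%) and 17.4% (16.3% to 18.7%). At 15 or more they were 29.6% (21.2% to 39.2%) and 22.5% (20.9% to 24.2%), with overlapping intervals. Over all autosomal regions the shares at these 4 levels were 21.6%, 26.6%, 29.7% and 34.0%, each inside the interval of the wide regions. Within 10 kb the difference from the class was less even. The shares were 59.8% (49.0% to 69.9%) and 49.4% (48.0% to 50.9%) at 0 to 4, and 68.0% (60.5% to 74.9%) and 62.5% (61.4% to 63.7%) at 5 to 9, with overlapping intervals in both. They were 79.5% (72.3% to 85.5%) and 70.5% (69.0% to 71.9%) at 10 to 14, and 80.6% (71.8% to 87.5%) and 81.0% (79.4% to 82.5%) at 15 or more, where the class was the higher by less than the interval. Over all autosomal regions the shares within 10 kb were 50.3%, 65.8%, 74.69% and 83.4% at these 4 levels. Each lay inside the interval of the wide regions, so the difference at 10 to 14 is one from the class only. A neighbour within 1 kb on both sides was found for 12 members (2.27%, 1.18% to 3.94%), 0.864% of the class (0.733% to 1.01%) and 3.39% of all regions.

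Where a neighbour was very close, it was often a short fragment, as over all regions. Of the 62 members with a region within 200 bp, 37 (59.7%, 46.5% to 71.9%) had one of at most 75 bp as the nearest, against 45.7% (42.8% to 48.7%) in the 575 to 675 bp class, with overlapping intervals, and 47.6% over all regions, which lies inside the interval of the members. Within 1 kb such a short region was the nearest for 38.6% (30.5% to 47.2%) of the members with a neighbour there. At any distance it was the nearest for 15.3% (12.4% to 18.7%) of all members. Over all regions these shares were 37.2% and 17.1%, both inside the intervals of the members, and in the 575 to 675 bp class 28.2% and 12.5%. In 33 members (6.25%, 4.34% to 8.67%) the nearest region lay within 50 bp, so that 1 or 2 unlisted windows separated it from the member. This share was 2.32% in the 575 to 675 bp class and 11.8% over all regions, so the members lay above the former and below the latter. The nearest neighbour at any distance was a region of 575 to 675 bp for 198 members (37.5%) and another wide region for 11 (2.08%, 1.04% to 3.70%). For the 575 to 675 bp class these shares were 38.97% and 1.14% (0.994% to 1.31%), and over all regions 33.6%, inside the interval of the members (33.4% to 41.8%), and 1.04%.

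On average, wide regions had more regions within 100 kb. The mean number of other regions within 100 kb was 11.7 (SD 6.42 across regions, median 11) against 9.64 (SD 6.06, median 9) in the 575 to 675 bp class and 9.78 over all. It was much the same under the bound, 11.39 at 700 to 800 bp and 11.79 at 825 to 1000 bp (median 11 in both). The higher number is therefore not particular to regions over 1000 bp. Fewer than 3 regions within 100 kb were found for 17 members (3.22%, 1.89% to 5.11%) and 8.93% of the class (8.52% to 9.36%). The same share was not counted over all regions or for other widths. No region at all within 100 kb was found for 1 of the 528 members, 289 of 17825 in the class and 1234 of all 50386. Those 17 included the pair on chromosome 17, the 2100-bp member on chromosome 13 and the 1700-bp member chr2:147003299-147004998. The loneliest was chr5:86619671-86620720 (1050 bp), 123625 bp from the nearest region. After the member on chromosome 13 came chr8:24138174-24139223 (80350 bp away), chr14:66284570-66285669 (67575 bp) and chr11:90558521-90559545 (58575 bp). At the crowded end were chr10:79174603-79175727 with 37 regions within 100 kb and chr10:79255728-79256752 with 35. They were followed by chr5:121098546-121099770 (32), a member in the Tcra/Tcrd window (30) and chr4:147525386-147526485 (29, a number shared by 3 members).

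Wide regions also lay near each other more often than other regions lay near them. Another wide region was within 100 kb of 90 members, or 17.05% (13.9% to 20.5%), whereas a wide region was within 100 kb of 10.8% (10.4% to 11.3%) of the 575 to 675 bp class and 11% of all regions. Within 10 kb it was 15 members, or 2.84% (1.60% to 4.64%), against 1.72% (1.54% to 1.92%) and 1.75%, with overlapping intervals. Crowding moves with these shares, as given above, and its part in them was not tested. The 15 formed 8 neighbouring pairs. Besides the pairs on chromosomes 17 and 4 described above, these were chr5:143697221-143698495 and chr5:143701896-143702945, chr11:94727346-94728370 and chr11:94731071-94732145, chr17:26145977-26147076 and chr17:26148527-26149601, and the 1750-bp member chr18:36478357-36480106 with chr18:36488032-36489081. The gaps within these 4 pairs were 3400, 2700, 1450 and 7925 bp. The remaining pairs shared a member and formed the only group of 3 within 10 kb.

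That group lay at the low-coordinate end of the window of Igh, the immunoglobulin heavy chain locus. Its members were 1250 bp (chr12:114455336-114456585), 1275 bp (chr12:114457911-114459185) and 1375 bp (chr12:114460061-114461435). The first and the second were 1325 bp apart, and a region of 675 bp stood between the second and the third, 75 bp from one and 125 bp from the other. Over the 3525 bp from the start of the second to the end of the third, 3325 bp were covered. Igh held 3 wide regions among 148 (2.03%, 0.42% to 5.81%), all in this group. The Tcra/Tcrd window (1.9 Mb, which encodes both the alpha and delta chains of the T cell receptor) held 6 among 191 (3.14%, 1.16% to 6.71%). The interval of Tcra/Tcrd leaves out the 1.05% over all autosomes and that of Igh does not. Both take regions as independent, which neighbours in 1 locus are not. The windows of Tcrb, Tcrg, Igk and Igl, the other antigen receptor loci, held none among 66 regions. Taken over all 6 windows, 9 of 405 regions were wide (2.22%, 1.02% to 4.18%, against 1.05% over all autosomes, which lies inside the interval). Of 6 other windows, around H19/Igf2, Hoxa, Hoxd and the beta- and alpha-globin and protocadherin clusters, all known for CTCF binding, none held a wide region among 113 (upper bound 3.21%).

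The 6 wide regions of Tcra/Tcrd lay in order along the locus with the following surroundings. Numbered 1 to 6 from low to high coordinates, members 1, 3 and 5 were 1125, 1100 and 1125 bp wide (chr14:53441095-53442219, chr14:53751895-53752994 and chr14:54136095-54137219). Each was followed by a region of 625 bp after 1275, 1250 and 1225 bp, and then by a region of 50 bp that started 3425, 3375 and 3375 bp from the start of the member. Members 2, 4 and 6 were 1200, 1200 and 1275 bp wide (chr14:53626870-53628069, chr14:53938045-53939244 and chr14:54329170-54330444). Each came after a region of 550, 625 and 625 bp, which ended 5450, 5400 and 5425 bp before it. Within a tolerance of 50 bp in offset and width, this neighbour matched between members 4 and 6 only, since that of member 2 was 550 bp wide and the others 625 bp. Members 2, 4 and 6 thus do not meet the criterion for a repeat used for all members, and their neighbour was picked out after the positions were seen. The starts of members 1 and 2, 3 and 4, and 5 and 6 were 185.775, 186.15 and 193.075 kb apart. From member 1 to 3 it was 310.8 kb and from 2 to 4 311.175 kb, while from 3 to 5 it was 384.2 kb and from 4 to 6 391.125 kb. The V part of this locus in C57BL/6 mice is known for large duplicated blocks, in which a short read cannot always be assigned to a single copy. The 6 members may therefore not be 6 independent measurements, and how the authors placed such reads is not given in the sources used here.

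**Figure D5:**
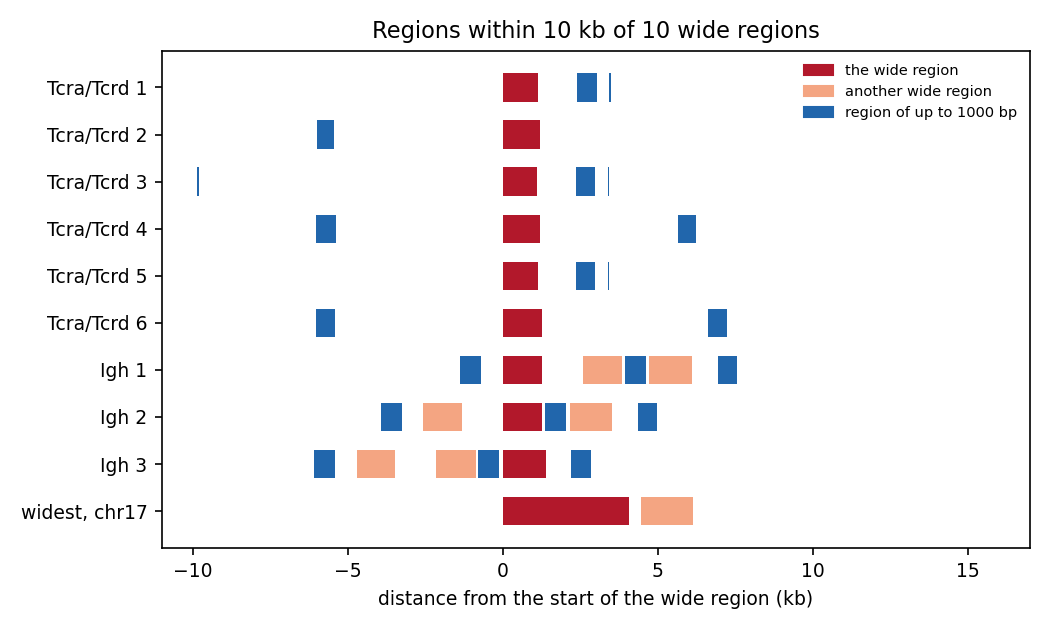
Regions within 10 kb of 10 wide regions, drawn to scale as bars by distance in kb from the start of the wide region (x axis). Members 1, 3 and 5 of Tcra/Tcrd share a 625-bp neighbour after a gap of 1225 to 1275 bp, members 2, 4 and 6 each have a region of 550 or 625 bp 5400 to 5450 bp before, the Igh members are packed with regions on both sides, and the widest region has another wide region as its sole neighbour.

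Such repeats were searched for around all 528 wide regions. A pair of wide regions was counted where their widths differed by at most 100 bp and at least 2 regions within 10 kb had the same offset and width, each within 50 bp. In the same orientation 4 of 61088 possible pairs matched, and 3 of these were members 1, 3 and 5 of Tcra/Tcrd. The other match joined chr11:58114496-58115870 with chr19:45104386-45105835. Among pairs of the 575 to 675 bp class, 0.0017% matched, against 0.00655% of the wide pairs. The share of the wide pairs rests on 4 matches, and outside the Tcra/Tcrd locus only 1 was left. It thus shows no general excess of repeats around wide regions, and no such share was computed over all regions. Restricted to pairs 20 kb to 1 Mb apart, 3 of 132 wide pairs matched (2.27%, 0.471% to 6.50%), which are the 3 pairs of a single set of 3 regions. In the 575 to 675 bp class it was 17 of 233126 (0.00729%), and 11 of those 17 also lay in the Tcra/Tcrd window.

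Mirrored arrangements, in which the neighbours stand in the reverse order, were found for 7 wide pairs (0.0115%, against 0.00264% in the 575 to 675 bp class). None of the 7 were within 1 Mb of each other. They were chr1:159011471-159012570 with chr11:83253596-83254770, chr3:38786294-38787518 with chr4:114580886-114582060, chr4:126422386-126423410 with chr15:27780430-27781529, and chr4:133392336-133393410 with chr19:5087636-5088735. The others were chr9:45219701-45220900 with the first Igh member, chr9:121922851-121924125 with chr17:35411177-35412376, and the latter with chr17:73266352-73267651. Each of the 11 matches rested on 2 neighbours. Wide regions have more neighbours than the 575 to 675 bp class, which gives more chances of a match, and the part of this in the counts was not tested.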

How the data were processed

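The authors deposited positions only: 912174 peak windows, all 25 bp long, with chromosome, start and end and no other value such as a height or score. Bowtie and the build mm9 are named per the submitters' processing notes. How peaks were called, at which threshold and whether the input entered is not given in the sources used here. Starts were read as counted from 0, and 0 windows had another length.

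Adjoining windows (a gap of 0 bp) made up each region on autosomes 1 to 19. The members and the windows around known loci were chosen with earlier results of these data known, and the bounds of those windows are rounded values from general knowledge. The regions named by position were the 20 widest, those in such windows, those with 2 other wide regions or a repeated arrangement within 10 kb, and the 5 most isolated and 5 most crowded. Regions singled out otherwise, among them the fullest bins, the pairs and the longest empty stretch, were chosen after their values were seen.

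With 1 library, counts, shares with exact (Clopper-Pearson) 95% intervals and medians were computed and no test was made. Intervals cover counting error only. Protein-coding genes per chromosome were counted in the RefSeq table of GRCm38, and none of its coordinates were used. No sequence is printed, since a genome of mm9 was not used here. The neighbour and arrangement steps were run on simulated regions with planted neighbours and exact planted copies, as a check of the code only. The simulated regions were placed at random on a grid, without the clustering of these data. They therefore give no rate of false matches here. Figures were drawn with matplotlib 3.10.9, and values computed with SciPy 1.17.1, pandas 2.3.3 and NumPy 2.4.6 in Python 3.11.15.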

Additional observations from a re-analysis of the deposited data

Results flagged for a closer look

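The X was left out by the rule, and wide regions were also listed there. It held 10 regions wider than 1000 bp among 1274 (0.785%, exact 95% binomial interval 0.377% to 1.44%), with widths of 1025 to 1225 bp. This interval includes the share on the autosomes. None of the 10 had a neighbour within 1 kb, their median distance to the nearest region was 2062 bp, and their median number of other regions within 100 kb was 25.5. These values were not computed for the other regions of the X. With the X included, 96 wide regions had another within 100 kb, against 90 on the autosomes alone, so some of the 10 lay near each other.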

How the results depend on the processing

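The 14 settings gave 107 recomputed values, of which 62 stayed within the counting interval or within 1.5 times the count, 44 moved beyond it and 1 changed sign. The number of wide regions, 528, was 799 after joining at gaps of at most 100 bp, and 847, 201 and 44 with bounds of 900, 1200 and 1500 bp, by construction. The median distance to the nearest region differed from that of the 575 to 675 bp class by -2438 bp, by -3538 for regions over 1500 bp and by -1162 against all other regions of at most 1000 bp. Against the latter, the share with a neighbour within 1 kb differed by -0.449 percentage points, and by 10.2 against the class. Members with another within 100 kb were 90 (17.05%), and 173 (21.65%) after joining at 100 bp. With the bounds of 900, 1200 and 1500 bp they were 195 (23.0%), 23 (11.4%) and 2 (4.545%). The share of other regions near a wide one was not recomputed at these settings, so whether the difference holds there was not tested. Members in a repeated arrangement, 18, were 9 after joining at 100 bp and 38, 2 and 0 with those bounds. They were 4 and 49 with tolerances of 25 and 100 bp, and 0 with at least 3 matched neighbours. Of the 3 Tcra/Tcrd members 1, 3 and 5, 2 were left at a tolerance of 25 bp and 0 with at least 3 matched neighbours. With bounds of 1200 or 1500 bp 0 were left by construction, since these members are 1100 to 1125 bp wide. No paired analysis was possible because only 1 library was analysed. The file holds no heights or depth, so an unlisted position does not tell weak from absent binding.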
